A study of Mus musculus with 12 samples.

Results

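The data described here are the response of STHdhQ7 cells to IFNγ/LPS. STHdhQ7 is an immortalized line derived from striatal cells of a mouse with a normal huntingtin gene. The comparison uses 6 of the 12 RNA-seq libraries of the series, which are 3 libraries of nontreated STHdhQ7 cells (Q7-C) and 3 libraries of STHdhQ7 cells that were incubated with 100 ng/mL murine IFNγ and 5 μg/mL LPS together for 24 h (Q7-T). The other 6 libraries come from STHdhQ111 cells, which carry an expanded glutamine tract in huntingtin, either nontreated (Q111-C, n = 3) or treated in the same way (Q111-T, n = 3), and they serve to set the response of STHdhQ7 cells against that line and, in 1 alternative, to estimate the spread. A gene was tested when 3 or more of the 6 STHdhQ7 libraries reached 0.5 TPM, which left 14259 of 29428 genes. The 3 libraries of 1 group can meet this filter alone. Genes that pass only through Q7-T could scarcely be called lower, and those that pass only through Q7-C scarcely higher. TPM is a transcript level scaled for library size and transcript length, so levels of different genes can be compared. Both agents were given together, so the part of either one cannot be told apart. Each group is 1 cell line at 1 time point, and the p-values measure the spread between these libraries. The study names them biological replicates, but neither it nor the labels say whether they were separate cultures.

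IFNγ binds the receptor made of Ifngr1 and Ifngr2, and the kinases Jak1 and Jak2 then pass the signal on to gamma-activated sites in target promoters. LPS is carried by Lbp and Cd14 to the receptor Tlr4 with its co-receptor Ly96, and signals through the adaptors Myd88 and Ticam1 to NF-kB and to interferon regulatory factors. Glial cells of the striatum are known to answer both signals with chemokines, antigen presentation genes and the inducible nitric oxide synthase Nos2.

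The labelled cell type was first compared with marker genes. Of 13 markers of striatal projection neurons, 10 were in the table and 1 of them, Foxp1, passed the filter. The GABA-synthesizing enzyme Gad1 was listed at 0 in all 6 libraries. Of 9 pan-neuronal markers, 7 were in the table and 3 passed the filter (Tubb3, Map2 and Stmn2), while Nefm stayed below it and Snap25, Syt1 and Dcx were listed at 0. The summed pan-neuronal level was 94.4 to 104 TPM in Q7-C and 131 to 168 TPM in Q7-T, and 1 marker, Tubb3, was upregulated. Neural progenitor markers were detected for 6 of 7 genes in the table, with a summed level of 2421 to 2790 TPM in Q7-C and 1757 to 2085 TPM in Q7-T, most of it from the intermediate filament gene Vim (2493 ± 158 to 1848 ± 128 TPM, mean ± SD of Q7-C to that of Q7-T, n = 3 each, as in all values given this way). Markers of mesenchymal cells were also detected, for 9 of 10 genes, at 2035 to 2312 TPM in Q7-C and 1660 to 1896 TPM in Q7-T, and 3 of them (Col1a1, Col1a2 and Col3a1) were downregulated. Of 11 microglia and macrophage markers, 9 were in the table and 2 passed the filter (summed level 17.8 to 20.6 TPM in Q7-C and 12.1 to 18.2 TPM in Q7-T). One of these, Tmem119, was downregulated, whereas the defining genes Ptprc, Itgam, Adgre1 and Spi1 were at or near 0 in every library. The line is therefore called STHdhQ7 throughout, and no cell type name is drawn from these levels.

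Library totals of Q7-C lay between 61993741 and 87459646 estimated counts. Those of Q7-T lay between 57505990 and 96417834. Between 13579 and 14370 genes per library reached 0.5 TPM. In 2 libraries, Q7-C replicate 1 and Q7-T replicate 2, the levels deviated with transcript length. Genes were split into 5 classes of transcript length with equal numbers of genes. Relative to the other 2 libraries of its group, the median of the class of longest transcripts (at least 4663 bases) was shifted by −0.89 in Q7-C replicate 1 and by −1.13 in Q7-T replicate 2 on the log2(TPM + 0.5) scale. The median of the shortest class (at most 1215 bases) was shifted by 0.22 and 0.15. The other 4 libraries changed in the opposite direction with length, by 0.31 to 0.80 between the shortest and the longest class. This follows at least in part from the comparison, as each of the 4 is set against 1 of these 2 libraries. The cause of the deviation in the 2 libraries was not tested. Results are therefore also given without this pair of libraries, which leaves 2 libraries in each group.

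Skeletal muscle transcripts set further libraries apart. The summed level of 20 such genes, listed after their values were seen, was 22.9, 61.7 and 22.7 TPM in Q7-C and 978, 3771 and 15.6 TPM in Q7-T. It was 584, 11 and 9.87 TPM in Q111-C and 35.9, 15.1 and 789.6 TPM in Q111-T. Acta1, the skeletal actin, was measured at 0.93, 14.2 and 0.36 TPM in Q7-C and 153, 572 and 0.256 TPM in Q7-T (log2 fold change 6.20, adjusted p = 0.447). The fast myosin chain Myh4 went from 0.89 ± 1.36 to 202 ± 261 TPM and the muscle creatine kinase Ckm from 1.16 ± 1.86 to 100.4 ± 127 TPM. All 20 genes were higher in Q7-T replicates 1 and 2 than in every Q7-C library, and 1 of them, Mb, in Q7-T replicate 3 as well. Of 17 tested, 0 were called in the main test, 12 with DESeq2 and 8 without Q7-T replicate 3. The source of these transcripts, and their part in the results below, was not tested, but the main counts are also given for Q7-T replicate 3 alone against Q7-C.

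**Figure D1:**
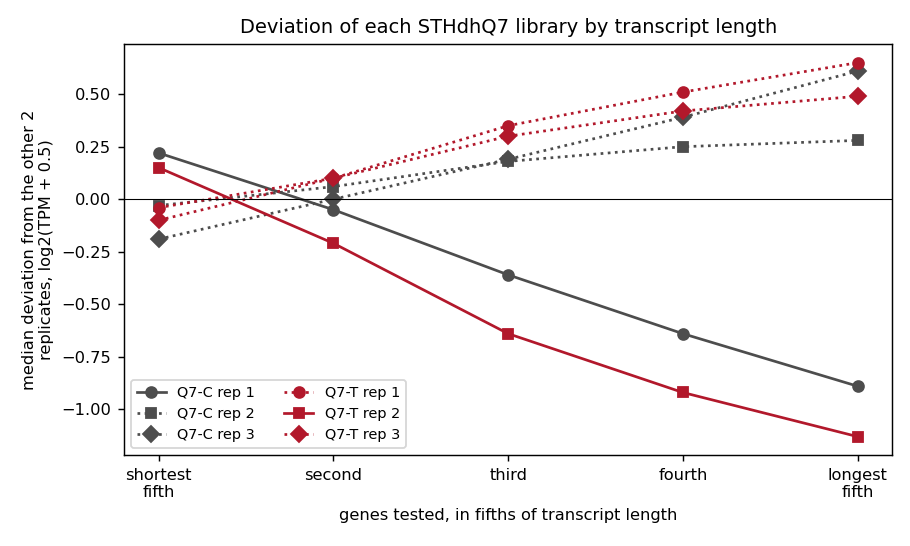
Median deviation of each STHdhQ7 library from the other 2 libraries of its group (y axis, log2(TPM + 0.5)) for genes in 5 classes of transcript length (x axis). Solid lines mark Q7-C replicate 1 and Q7-T replicate 2, which reach −0.89 and −1.13 in the longest class. The 4 dotted lines lie above 0 there, at least in part because each is compared with 1 of the solid ones.

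IFNγ/LPS treatment was followed by higher levels of interferon-inducible GTPases, antigen presentation genes and chemokines, and by lower levels of several collagens, whose calls depended on the fit. A gene was counted as upregulated or downregulated (DEG) with an adjusted p under 0.05 in edgeR's quasi-likelihood test and at least a 2-fold change. By this rule 323 genes were upregulated, which is 2.27% of the genes tested, and 82 were downregulated, which is 0.575%. The median log2 fold change was 3.31 among the upregulated and −1.67 among the downregulated genes, compared with 0.01 over all genes tested. TPM values of Q7-T lay wholly above those of Q7-C for 317 of the 323 upregulated genes, while such a separation was found for 5.47% of all genes tested. All 82 downregulated genes had Q7-T values wholly below Q7-C, compared with 9.17% of all genes. As the calls were made on the same 6 libraries, these separations are a description. The upregulated genes together made up 0.361%, 0.448% and 0.412% of the summed TPM of Q7-C. In Q7-T they made up 3.92%, 2.75% and 3.81%. Of the upregulated genes, 203 had a mean of at least 1 TPM in nontreated cells, and 27 were not detected there, meaning at most 12 estimated counts in each Q7-C library.

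Without Q7-C replicate 1 and Q7-T replicate 2, 480 genes were upregulated and 272 downregulated, and these included 318 of the 323 and all 82 genes named above. Leaving out Q7-C replicate 2 or Q7-C replicate 3 left 200 and 205 upregulated genes. The downregulated genes fell in number to 18 without Q7-C replicate 2, 23 without Q7-C replicate 3, 24 without Q7-T replicate 3, 33 without Q7-T replicate 1 and 44 without Q7-C replicate 1. TPM values of the groups did not overlap for 317 of the 323 and all 82 genes. Refits of these libraries could therefore hardly reverse a direction. Every one of the 323 and the 82 genes kept its direction in each of the 20 alternatives that tested it. One of these set Q7-T replicate 3, which was low in muscle transcripts, alone against Q7-C, so that its spread was taken to be that of Q7-C. It called 171 genes upregulated and 11 downregulated, among them 170 of the 323 and 8 of the 82. Of the list genes described below, it called 86 upregulated and 0 downregulated, compared with 117 and 8 in the test of all 6 libraries.

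**Figure D2:**
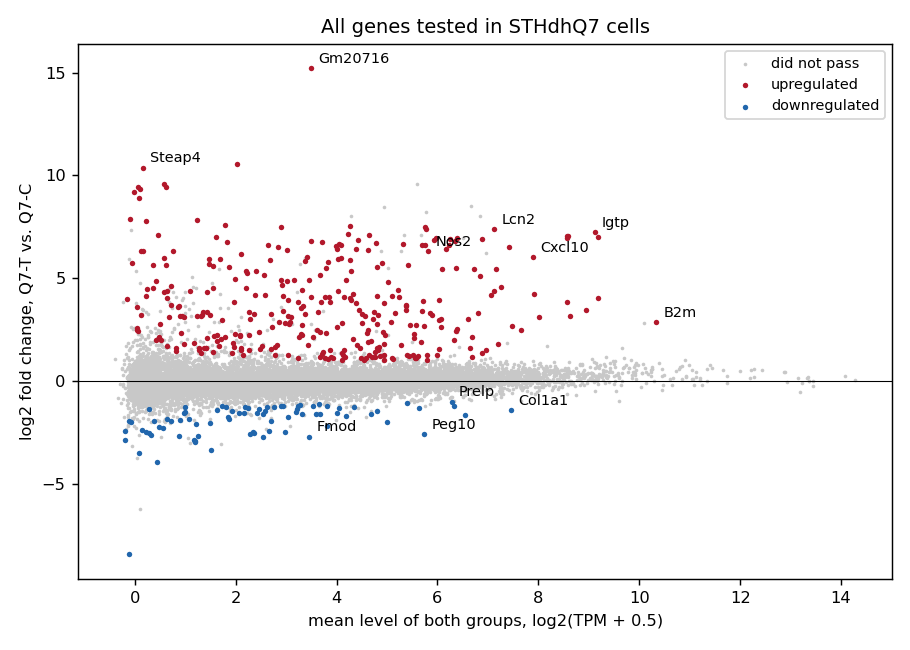
Log2 fold change of Q7-T vs. Q7-C (y axis) against the mean level of both groups (x axis, log2(TPM + 0.5)) for the 14259 genes tested, 1 point per gene. Red marks the 323 upregulated and blue the 82 downregulated genes; the fitted fold change of genes not detected in Q7-C, such as Gm20716 and Steap4, depends on the prior count.

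The pathway genes were read in 23 lists, 16 of immune response genes and 7 of other processes. The lists were chosen with earlier results of these data known, so their counts are a description. Over all genes tested, 2.27% were upregulated and 0.575% downregulated. In the immune lists 114 of 225 genes tested were upregulated and 0 downregulated, with a median log2 fold change of 2.21, and 6 genes were not detected in Q7-C. In the other lists 3 of 131 were upregulated and 8 downregulated, with a median of −0.14. As the levels are those of whole cultures, a change in the number of responding cells and a change of the RNA per cell cannot be told apart.

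**Figure D3:**
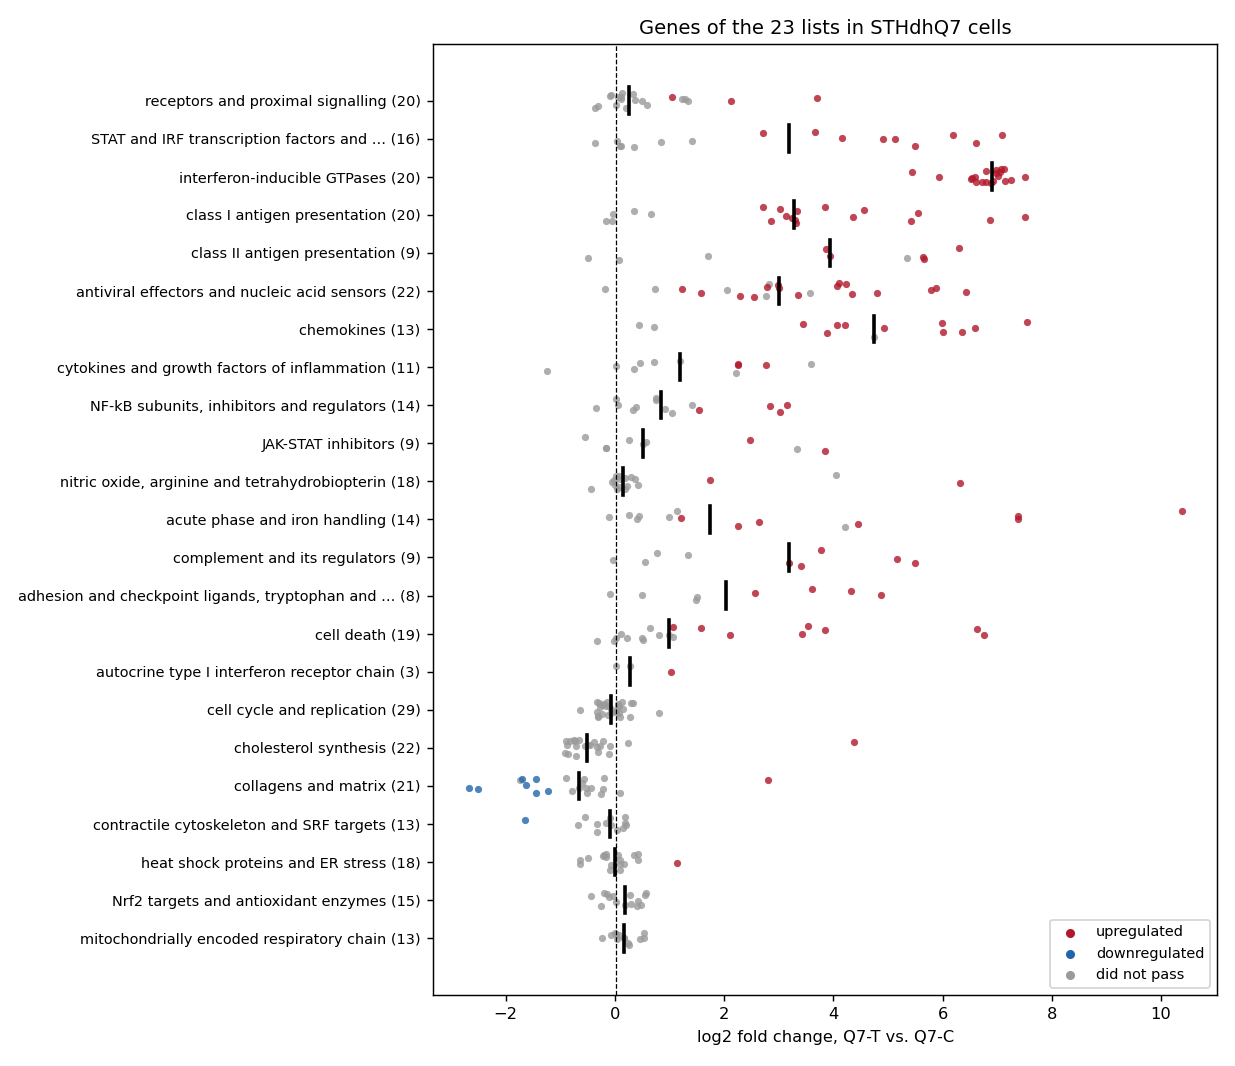
Log2 fold change of Q7-T vs. Q7-C (x axis) of every tested gene in 23 lists (y axis, number of genes tested in brackets), with a black bar at each list's median. Red points are upregulated, blue downregulated, and grey points did not pass; all 20 GTPase genes lie between 5.45 and 7.51, while cell cycle, antioxidant and mitochondrial genes lie around 0.

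The receptors of both agents were expressed in nontreated STHdhQ7 cells, and most genes of the proximal pathway did not pass the test. Of 20 genes tested, 3 were upregulated and 0 downregulated, with a median log2 fold change of 0.27. Ifngr1, the ligand-binding chain of the IFNγ receptor, was measured at 28.6, 37.1 and 39.3 TPM in Q7-C and 35.7, 17.4 and 36.6 TPM in Q7-T (log2 fold change -0.08, adjusted p = 0.951). Its partner Ifngr2 was measured at 12.5, 20.9 and 16.2 TPM in Q7-C and 20.1, 11.2 and 19 TPM in Q7-T (log2 fold change 0.21, adjusted p = 0.906). For both chains the groups overlapped. The kinases Jak1 (40.4 ± 19 to 36.6 ± 18.7 TPM) and Jak2 (15.6 ± 6.15 to 20.2 ± 11.7 TPM) overlapped as well, each with its lowest values in Q7-C replicate 1 and Q7-T replicate 2. Tlr4 itself was low, at 0.765, 2.07 and 2.37 TPM in Q7-C and 1.89, 0.63 and 1.78 TPM in Q7-T (log2 fold change -0.10, adjusted p = 0.971), and its co-receptor Ly96 was at 3.82 ± 0.704 to 4.85 ± 0.92 TPM (adjusted p = 0.745).

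The soluble LPS carrier Lbp was upregulated, from 0.142, 0.23 and 0.189 TPM to 2.17, 1.81 and 2.38 TPM (log2 fold change 3.69 ± 0.31, adjusted p = 0.000838, mean ± SE as in all fold changes given this way). Cd14, which hands LPS to Tlr4, was measured at 3.3, 2.96 and 2.54 TPM in Q7-C and 6.42, 6.23 and 6.81 TPM in Q7-T, with no overlap of the groups and no call (log2 fold change 1.35, adjusted p = 0.123); without the pair of libraries it passed (log2 fold change 1.37, adjusted p = 0.00381). The adaptor Myd88 was upregulated by a small amount, from 17.9, 22.6 and 22.3 TPM to 50.3, 21.7 and 45.3 TPM (log2 fold change 1.04 ± 0.20, adjusted p = 0.0424), with Q7-T replicate 2 inside the range of Q7-C. Irak3, a kinase-dead inhibitor of the pathway, was upregulated from 0.251, 0.415 and 0.415 TPM to 1.7, 0.851 and 1.69 TPM (log2 fold change 2.13 ± 0.31, adjusted p = 0.0117), whereas Irak2, an active member of that family, was at 5.57 ± 1.31 to 12.4 ± 7.74 TPM (adjusted p = 0.292) and passed only without the pair (log2 fold change 1.53, adjusted p = 0.000134). The interferon-branch kinase Ikbke did not pass (0.661 ± 0.236 to 1.39 ± 0.363 TPM, log2 fold change 1.29, adjusted p = 0.0617).

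Of the remaining proximal genes, Irak1 (19.2 ± 6.76 to 14.3 ± 8.32 TPM), Irak4 (4.14 ± 1.77 to 4.09 ± 2.04 TPM), Traf6 (6.27 ± 2.78 to 5.75 ± 2.47 TPM), and Tbk1 (22.3 ± 6.77 to 26 ± 12.8 TPM) did not pass. The same held for Chuk (27.2 ± 11.4 to 20.0 ± 14.9 TPM), Ikbkb (7.04 ± 3.02 to 6.73 ± 3.02 TPM), Tirap (5.25 ± 1.86 to 5.11 ± 2.18 TPM) and Ticam1 (15.7 ± 1.81 to 16.4 ± 1.4 TPM). The log2 fold changes of these genes lay between −0.36 and 0.36. Ticam2, an adaptor of the Ticam1 branch, stayed below the filter in all 6 libraries, with a highest level of 0.093 TPM. The call of Myd88 was lost without each library other than Q7-T replicate 2 (log2 fold changes 0.95 to 1.17), and that of Irak3 without Q7-C replicate 2, Q7-C replicate 3, Q7-T replicate 1 or Q7-T replicate 3 (2.05 to 2.22). Without the pair, 6 genes of the list were upregulated.

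Transcription factors of the interferon pathway showed a wide range of changes. Of 16 STAT, IRF and co-activator genes tested, 9 were upregulated and 0 downregulated (median log2 fold change 3.19; 10 upregulated without the pair, 8 to 10 with any 1 library left out). Irf8, a factor known from myeloid cells, rose from 0.0791, 0.0833 and 0.18 TPM to 7.66, 6.7 and 8.19 TPM (log2 fold change 6.20 ± 0.39, adjusted p = 0.000329). Irf7, which drives type I interferon genes, rose from 0.672, 0.923 and 0.818 TPM to 18.3, 21.9 and 20.4 TPM (log2 fold change 4.90 ± 0.35, adjusted p = 0.000452).

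Batf2, a partner of IRF proteins, rose from 0.385 ± 0.218 to 32.7 ± 3.76 TPM (log2 fold change 6.60, adjusted p = 0.00236). Both master regulators of antigen presentation were upregulated: Nlrc5, the co-activator of class I genes, from 0.407, 0.962 and 0.483 TPM to 34.1, 8.54 and 35.8 TPM (log2 fold change 5.49, adjusted p = 0.00134), and Ciita, that of class II genes, from 0.0376, 0 and 0 TPM to 2.3, 0.917 and 1.98 TPM (adjusted p = 0.0261). The call of Ciita was lost without Q7-C replicate 2, Q7-C replicate 3, Q7-T replicate 1 or Q7-T replicate 3. Stat2, Irf1 and Irf9, named after their values were seen, had means of 74.8, 249.5 and 16.2 TPM in Q7-T and log2 fold changes of 3.66, 4.16 and 2.72. Stat3 was measured at 8.17, 13 and 13.3 TPM in Q7-C and 41.6, 8.79 and 36 TPM in Q7-T and did not pass (log2 fold change 1.41, adjusted p = 0.156), with Q7-T replicate 2 inside the range of Q7-C; without the pair its log2 fold change was 1.66, adjusted p = 9.62e-06. Irf3, which is activated by phosphorylation, and Stat5b showed log2 fold changes of 0.12 and 0.05 with overlapping groups.

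The promoter of Irf8, taken from RefSeq on GRCm38.p6, is shown because it holds a pair of gamma-activated sites (capitals, TTCNNNGAA) starting 171 and 153 bases upstream of the start.
Irf8, chr8:120736177-120736223, plus strand: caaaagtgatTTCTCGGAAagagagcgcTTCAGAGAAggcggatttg

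Every gene in the list of interferon-inducible GTPases, which attack the vacuoles of intracellular pathogens, rose. The GTPases Mx1 and Mx2 are in the antiviral list. All 20 genes tested were upregulated, with log2 fold changes between 5.45 and 7.51 and a median of 6.91, and all 20 remained called without each library in turn, without the pair and with Q7-T replicate 3 alone. Their summed level was 42.9 to 89.6 TPM in Q7-C and 3965 to 7431 TPM in Q7-T. Igtp (chr11:58199556-58207591, GRCm38), a member of the immunity-related GTPases, rose from 6.31, 13 and 6.32 TPM to 1159.5, 964 and 1173 TPM (log2 fold change 7.25 ± 0.41, adjusted p = 0.000309). Gbp2b, a guanylate-binding protein gene, rose from 4.55, 9.37 and 4.47 TPM to 955, 399.9 and 884 TPM (log2 fold change 7.07 ± 0.41, adjusted p = 0.000312). Tgtp1 rose from 4.94, 10.1 and 4.6 TPM to 822, 566 and 881 TPM (log2 fold change 7.05 ± 0.40, adjusted p = 0.00031).

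Members with lower basal levels rose as well. Gbp8 rose from 0.0899, 0.0939 and 0.049 TPM to 15.7, 8.03 and 17.5 TPM (log2 fold change 7.51, adjusted p = 0.000252). Gbp10 rose from 0.308, 0.497 and 0.261 TPM to 62.9, 11.8 and 70.5 TPM (log2 fold change 7.12, adjusted p = 0.00109). The predicted family member Gm4841 rose from 0.207, 0.416 and 0.188 TPM to 43.9, 15.2 and 48.8 TPM (log2 fold change 7.14, adjusted p = 0.000341). Irgm1, which regulates the other immunity-related GTPases and was named after its values were seen, had the smallest log2 fold change of the list (5.45 ± 0.33) and a mean of 7.1 TPM in Q7-C. Genes of this family lie in clusters of similar sequence, Igtp overlaps Irgm2 on the same strand and Tgtp1 and Tgtp2 are near copies, so the split of reads between single members is uncertain.

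Of the 20 GTPase genes, 11 have a promoter entry (250 bases before to 50 after the start), and 10 of these hold an interferon-stimulated response element (GAAANNGAAA) or a gamma-activated site (TTCNNNGAA) on either strand. The stretches below overlap no annotated exon of their gene (GENCODE vM21, GRCm38). Those of Igtp, Tgtp2 and Gbp7 lie upstream of the annotated gene, while those of Tgtp1 and Irgm2 each lie in an intron of at least 1 longer transcript of the gene. They are shown because both motifs (capitals) lie in them, 2 bases apart in Igtp, Tgtp1, Tgtp2 and Irgm2 and 25 bases apart in Gbp7, where the element reads on the other strand. All except Igtp were chosen for display after the motif search.
Igtp, chr11:58199501-58199541, plus strand: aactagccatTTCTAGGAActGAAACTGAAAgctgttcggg
Irgm2, chr11:58214892-58214932, plus strand: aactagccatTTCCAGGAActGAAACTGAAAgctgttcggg
Tgtp1, chr11:48992304-48992344, minus strand: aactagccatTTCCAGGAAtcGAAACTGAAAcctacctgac
Tgtp2, chr11:49064263-49064303, minus strand: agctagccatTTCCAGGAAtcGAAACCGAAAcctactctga
Gbp7, chr3:142530220-142530302, plus strand: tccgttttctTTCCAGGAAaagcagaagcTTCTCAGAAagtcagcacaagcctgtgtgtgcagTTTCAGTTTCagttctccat

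Genes of class I antigen presentation, by which cells display cytosolic peptides, were upregulated in 15 of 20 cases, and 0 were downregulated (median log2 fold change 3.27; 15 upregulated without the pair). The immunoproteasome subunits rose from low basal levels. Psmb8 rose from 0.729, 0.978 and 0.424 TPM to 84.6, 139.5 and 92.2 TPM (log2 fold change 7.51 ± 0.64, adjusted p = 0.00089). Psmb9 rose from 0.393, 0.601 and 0.286 TPM to 37.8, 48.6 and 38.4 TPM (log2 fold change 6.86 ± 0.50, adjusted p = 0.000518). Psmb10 had a higher basal level and rose from 18.3, 13.9 and 12.1 TPM to 242, 368 and 261 TPM (log2 fold change 4.56 ± 0.51, adjusted p = 0.00322). Among treated libraries, replicate 2 was the highest for all 3 subunits, and the reason was not tested. Their transcripts of 1628, 1352 and 1311 bases are above the limit of the shortest class (1215 bases).

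The peptide transporter genes rose as well, Tap1 (chr17:34187553-34197225) from 2.67, 4.35 and 2.93 TPM to 167, 64.9 and 162 TPM (log2 fold change 5.43, adjusted p = 0.00031) and Tap2 from 1.05, 1.11 and 1.53 TPM to 71.5, 23.4 and 65.8 TPM (log2 fold change 5.55, adjusted p = 0.000329). Tap1 and Psmb9 overlap on opposite strands, and whether the counting used strand is not given in the sources used here. The heavy chain H2-K1 rose from 15.8, 15 and 12.4 TPM to 318, 208 and 265 TPM (log2 fold change 4.35, adjusted p = 0.000355). The most abundant genes of the list in treated cells, named after their values were seen, were B2m, the light chain, from 373, 373 and 329 TPM to 2342, 2221 and 2086 TPM (log2 fold change 2.86, adjusted p = 0.00278), and the heavy chain H2-D1 at 56.5 ± 3.87 to 700.3 ± 66.9 TPM (log2 fold change 3.84, adjusted p = 0.000452). The proteasome activators Psme1 (25.1 ± 1.71 to 198 ± 83.6 TPM) and Psme2 (24 ± 8.14 to 169.9 ± 10.1 TPM) were upregulated, but the call of Psme1 was lost without any 1 of the Q7-C libraries (log2 fold changes 2.52 to 3.62) and that of Psme2 without Q7-C replicate 2. General chaperones of the endoplasmic reticulum did not pass, with log2 fold changes of -0.06 for Calr, -0.16 for Canx and 0.36 for Pdia3, at 627, 129 and 516 TPM in Q7-T.

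The promoter of H2-M3, a nonclassical class I gene with a log2 fold change of 3.24, is shown with its gamma-activated site in capitals. It had the largest change among class I genes with a motif in an upstream window that shares no sequence with the gene's own annotated transcripts. Psmb8 changed more and holds a gamma-activated site as well, but its window shares sequence with its transcripts and is not printed.
H2-M3, chr17:37270015-37270043, plus strand: attaaaaatgTTCTAGGAAacgtgacatt

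Class II genes, which present peptides of the endocytic route and are typical of professional antigen-presenting cells, appeared at low levels. Of 9 genes tested, 5 were upregulated and 0 downregulated, with a median log2 fold change of 3.95, or 3.22 with the 4 genes that were not detected in Q7-C set to their lower bounds. These 4 genes met the filter through Q7-T, so they could scarcely be called lower. Cd74, the invariant chain, was the most abundant of the upregulated genes and rose from 3.47, 2.74 and 2.05 TPM to 29.7, 47.4 and 28.4 TPM (log2 fold change 3.95 ± 0.55, adjusted p = 0.0097). H2-DMb1, which helps to load peptides, rose from 0.662, 0.256 and 0.543 TPM to 6.49, 6.91 and 5.63 TPM (log2 fold change 3.87 ± 0.54, adjusted p = 0.00981). The classical chains remained low in treated cells: H2-Ab1 at 1.89, 2.64 and 1.53 TPM (at least 18.5-fold higher than the floor of 12 estimated counts per library), H2-Eb1 at 1.01, 1.15 and 1.36 TPM (at least 7.95-fold) and H2-Aa at 0.942, 1.18 and 0.928 TPM, which was not called (adjusted p = 0.11) and passed without the pair (adjusted p = 7.22e-05).

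H2-DMb2 reached 1.58, 1.7 and 1.34 TPM (at least 9.32-fold). Cathepsin S (Ctss), which trims the invariant chain in antigen-presenting cells, was not detected in either group. The abundant lysosomal genes Ctsl (65.3 ± 2.29 to 63.5 ± 26.9 TPM) and Ifi30 (86.2 ± 10.6 to 51.9 ± 5.4 TPM) did not pass. The number of calls rested on single libraries: 1 was called without Q7-C replicate 2 (H2-DMb1), 2 without Q7-T replicate 3, 3 without Q7-C replicate 3 or Q7-T replicate 1, and 4 without Q7-C replicate 1, while 7 passed without the pair.

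Antiviral effectors and nucleic acid sensors, typical targets of type I interferon, were upregulated in 16 of 22 genes tested, and 0 were downregulated (median log2 fold change 3.00; 20 upregulated without the pair). Zbp1, a sensor of Z-form nucleic acid, rose from 0.186, 1.07 and 0.427 TPM to 37.6, 36 and 46.5 TPM (log2 fold change 6.44 ± 0.61, adjusted p = 0.00149). Isg15, a ubiquitin-like modifier, rose from 2.7, 2.16 and 2.63 TPM to 74.9, 48.9 and 61.5 TPM (log2 fold change 4.79 ± 0.30, adjusted p = 0.000329). Bst2, which tethers budding viruses, rose from 34.3, 29.4 and 23.4 TPM to 387, 577 and 389 TPM (log2 fold change 4.23 ± 0.49, adjusted p = 0.00389). Within the list, only Ifitm3 was more abundant than Bst2 in treated cells. Xaf1 (0.744 ± 0.472 to 36.8 ± 5.55 TPM) and Oasl2 (0.57 ± 0.486 to 26.9 ± 9.23 TPM) had log2 fold changes of 5.88 and 5.79.

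Other classical antiviral genes stayed low. Rsad2, the viperin gene, was measured at 0, 0.407 and 0.136 TPM in Q7-C and 0.396, 0.25 and 0.0705 TPM in Q7-T, Mx1 at 0.0994 ± 0.132 to 0.295 ± 0.132 TPM and Cmpk2 at 0.126 ± 0.16 to 0.262 ± 0.263 TPM, all below the filter, and Cgas, the sensor of cytosolic DNA, at 0.0789 ± 0.0867 to 0.0655 ± 0.0601 TPM. The tetratricopeptide gene Ifit1 rose from 0.358, 3.58 and 1.14 TPM to 35.1, 11.4 and 27.8 TPM (log2 fold change 4.07, adjusted p = 0.0315), whereas Ifit2 was already at 13, 30.3 and 35 TPM in Q7-C and was measured at 57.3, 13.7 and 47.4 TPM in Q7-T (log2 fold change 0.73, adjusted p = 0.717). Ifitm3, which blocks virus entry, was the most abundant gene of the list, at 443, 294 and 245 TPM in Q7-C and 1329.6, 2877 and 1397 TPM in Q7-T. Its groups did not overlap but it did not pass (adjusted p = 0.0733), with the highest value in Q7-T replicate 2, and without the pair its log2 fold change was 2.44, adjusted p = 2.75e-06.

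Several calls of this list rested on single libraries. Between 9 and 17 genes were upregulated with 1 library left out, with 9 without Q7-C replicate 3 and 10 without Q7-T replicate 1 or Q7-T replicate 3. The calls of the sensor Ddx58, the kinase Eif2ak2 and the adaptor Sting1 were lost without each library other than Q7-T replicate 2 (log2 fold changes 2.10 to 2.57, 1.06 to 1.37 and 1.24 to 1.74). Calls of Ifit1 (3.63 to 5.17) and Ifi44 (3.86 to 4.68) were lost without Q7-C replicate 3, Q7-T replicate 1 or Q7-T replicate 3, and without Q7-C replicate 1 for Ifit1 or Q7-C replicate 2 for Ifi44. Ifit3b (2.42 to 3.39) lost its call without Q7-C replicate 3, Q7-T replicate 1 or Q7-T replicate 3, and Ifi35 (2.42 to 3.34) without any 1 Q7-C library.

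Among the type I interferon receptor genes, 1 of 3 was upregulated. Ifnar2 rose from 16.2, 15.9 and 16.3 TPM to 34.2, 20.5 and 34.1 TPM (log2 fold change 1.03 ± 0.20, adjusted p = 0.0472), and its call was lost without Q7-C replicate 2, Q7-C replicate 3, Q7-T replicate 1 or Q7-T replicate 3. Ifnar1 (16.8 ± 4.19 to 17.8 ± 4.7 TPM) and the kinase Tyk2 (5.7 ± 1.84 to 5.03 ± 1.79 TPM) did not pass. Ifnb1, which encodes a ligand of this receptor, was not detected in either group.

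Chemokines, which attract leukocytes, were upregulated in 10 of 13 genes tested, and 0 were downregulated (median log2 fold change 4.75; 11 upregulated without the pair). The 3 ligands of Cxcr3, a chemokine receptor of T cells, were upregulated. Cxcl10 (chr5:92346638-92348882) rose from 3.28, 13.6 and 7.76 TPM to 623, 238 and 535 TPM (log2 fold change 6.01 ± 0.50, adjusted p = 0.000838). Cxcl9 rose from 0.441, 1.95 and 1.25 TPM to 118, 61 and 125 TPM (log2 fold change 6.60 ± 0.49, adjusted p = 0.000518). Cxcl11 rose from 0.172, 1.03 and 0.637 TPM to 38.5, 25.3 and 33.2 TPM (log2 fold change 5.99 ± 0.55, adjusted p = 0.00127). For each of these genes the lowest nontreated library was Q7-C replicate 1 and the lowest treated library Q7-T replicate 2. Cxcl5, a ligand for neutrophils, rose from 0.383, 0.661 and 0.882 TPM to 65.7, 30.5 and 46.8 TPM (log2 fold change 6.36 ± 0.31, adjusted p = 0.000247). Cxcl16, a scavenger-receptor chemokine, rose from 1.13, 1.45 and 1.45 TPM to 35.2, 35.8 and 31.9 TPM (log2 fold change 4.93 ± 0.32, adjusted p = 0.000338).

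Monocyte chemokines had the highest levels. Ccl7 and Ccl2, named after their values were seen, reached 1172, 1141 and 936 TPM and 1073, 676 and 918 TPM in Q7-T, from 83.5, 81 and 64.6 TPM and 89.8, 105 and 80.5 TPM in Q7-C (log2 fold changes 4.06 and 3.45). Ccl8 was at 0, 0 and 0.68 TPM in Q7-C and rose to 34.3, 46.8 and 31.2 TPM (adjusted p = 0.0149), a call that was lost without Q7-C replicate 1. Ccl5 rose from 1.0, 4.23 and 2.48 TPM to 29.7, 48.9 and 30.4 TPM (log2 fold change 4.22, adjusted p = 0.0117), and its call was lost without Q7-C replicate 1 or Q7-C replicate 3 (log2 fold changes 3.57 to 4.71). Fractalkine (Cx3cl1), a neuronal chemokine that signals to microglia, was measured at 78.3, 94.4 and 85.4 TPM in Q7-C and 130.2, 53.8 and 139 TPM in Q7-T, and the stromal chemokine Cxcl12 at 11.1, 17.3 and 18.7 TPM in Q7-C and 32.4, 9.46 and 29.2 TPM in Q7-T, and neither passed (adjusted p = 0.7 and 0.479). Without the pair their log2 fold changes were 0.69 and 0.88, under the 2-fold limit. Ccl3, Cxcl2 and Cxcl3 stayed below the filter, and Ccl4 was listed at 0 in all 6 libraries.

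The Cxcl10 promoter, the chemokine promoter with the largest change among those with a motif, is shown because it holds an interferon-stimulated response element and a kappa B site, in capitals and in this order.
Cxcl10, chr5:92348973-92349112, minus strand: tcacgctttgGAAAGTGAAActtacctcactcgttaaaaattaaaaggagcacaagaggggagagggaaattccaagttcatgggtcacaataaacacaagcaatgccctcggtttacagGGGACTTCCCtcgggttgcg

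Of 11 cytokine genes tested, 3 were upregulated and 0 downregulated (median log2 fold change 1.19; 6 upregulated without the pair). Il15, a growth factor of natural killer cells, rose from 0.15, 0.344 and 0.27 TPM to 2.25, 0.88 and 1.55 TPM (log2 fold change 2.76 ± 0.40, adjusted p = 0.0117). Il18bp, which neutralizes interleukin-18, rose from 1.09, 1.57 and 2.55 TPM to 6.13, 6.59 and 7.77 TPM (log2 fold change 2.25 ± 0.34, adjusted p = 0.0146). Lif, a cytokine of the interleukin-6 family, rose from 0.614, 1.08 and 1.25 TPM to 5.74, 1.9 and 5.06 TPM (log2 fold change 2.25 ± 0.32, adjusted p = 0.0119). Each of the 3 calls was lost with some library left out, and 0 remained without Q7-C replicate 2: Lif without each library other than Q7-T replicate 2 (log2 fold changes 2.08 to 2.46), Il18bp also without Q7-C replicate 1 or Q7-T replicate 3 (2.01 to 2.51), and Il15 also without Q7-C replicate 3 or Q7-T replicate 1 (2.55 to 2.95).

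Il6 was measured at 0.0648, 1.92 and 1.53 TPM in Q7-C and 21.5, 3.61 and 13 TPM in Q7-T, with separate groups but wide spread, and did not pass (log2 fold change 3.60, adjusted p = 0.143); without the pair its log2 fold change was 3.41, adjusted p = 3.30e-05. Csf3, the granulocyte growth factor, was at 0.354, 0.153 and 0.227 TPM in Q7-C and 0.739, 1.41 and 0.699 TPM in Q7-T (adjusted p = 0.269), and Csf2 stayed below the filter at 0, 0.539 and 0.218 TPM in Q7-C and 0.96, 0.0778 and 0.479 TPM in Q7-T. Csf1, a growth factor of macrophages and microglia, was the most abundant cytokine gene of the list at 155 ± 48.4 to 182 ± 99 TPM (log2 fold change 0.35, adjusted p = 0.901). Tnf and Il12b were not detected in either group, and Ebi3 was listed at 0 in every library.

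In the NF-kB list, which includes inhibitors of inflammation, 4 of 14 genes were upregulated and 0 downregulated (median log2 fold change 0.84; 6 without the pair). Zc3h12a, a nuclease that degrades cytokine mRNA, rose from 4.59, 5.52 and 5.38 TPM to 45.8, 26.3 and 51.3 TPM (log2 fold change 3.15 ± 0.20, adjusted p = 0.000329). Nfkbiz, a nuclear inhibitor-like co-factor, rose from 3.51, 6.89 and 8.14 TPM to 66, 17.9 and 52.6 TPM (log2 fold change 3.02 ± 0.36, adjusted p = 0.00458). Bcl3 rose from 2.38, 1.98 and 2.15 TPM to 13.3, 12.2 and 15.8 TPM (log2 fold change 2.85 ± 0.30, adjusted p = 0.00256). The groups were apart for these 3 genes. Nfkbia, the main inhibitor of NF-kB, rose from 34.8, 33.1 and 36.4 TPM to 131, 43 and 111 TPM (log2 fold change 1.53, adjusted p = 0.033), and its call was lost without each library other than Q7-T replicate 2 (log2 fold changes 1.35 to 1.75). The subunit genes Rela (86.1 ± 11.8 to 78.8 ± 19.9 TPM) and Nfkb2 (61.8 ± 6.11 to 66.9 ± 10.6 TPM) did not pass.

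Of 9 inhibitors of JAK-STAT signalling tested, 2 were upregulated and 0 downregulated (median log2 fold change 0.51; 3 without the pair). Socs3, which blocks receptor-bound kinases, rose from 7.93, 9.17 and 6.74 TPM to 50.4, 22.7 and 48.8 TPM (log2 fold change 2.47 ± 0.26, adjusted p = 0.00243). Socs1, the inhibitor of IFNγ signalling, rose from 2.95, 1.31 and 1.54 TPM to 14, 34.4 and 20.2 TPM (log2 fold change 3.85 ± 0.70, adjusted p = 0.0322), and its call was lost without any 1 Q7-C library or without Q7-T replicate 3 (log2 fold changes 3.03 to 4.52). The phosphatase genes Ptpn11, Ptpn2 and Ptpn1 had log2 fold changes of -0.16, 0.51 and 0.27 and did not pass.

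**Figure D4:**
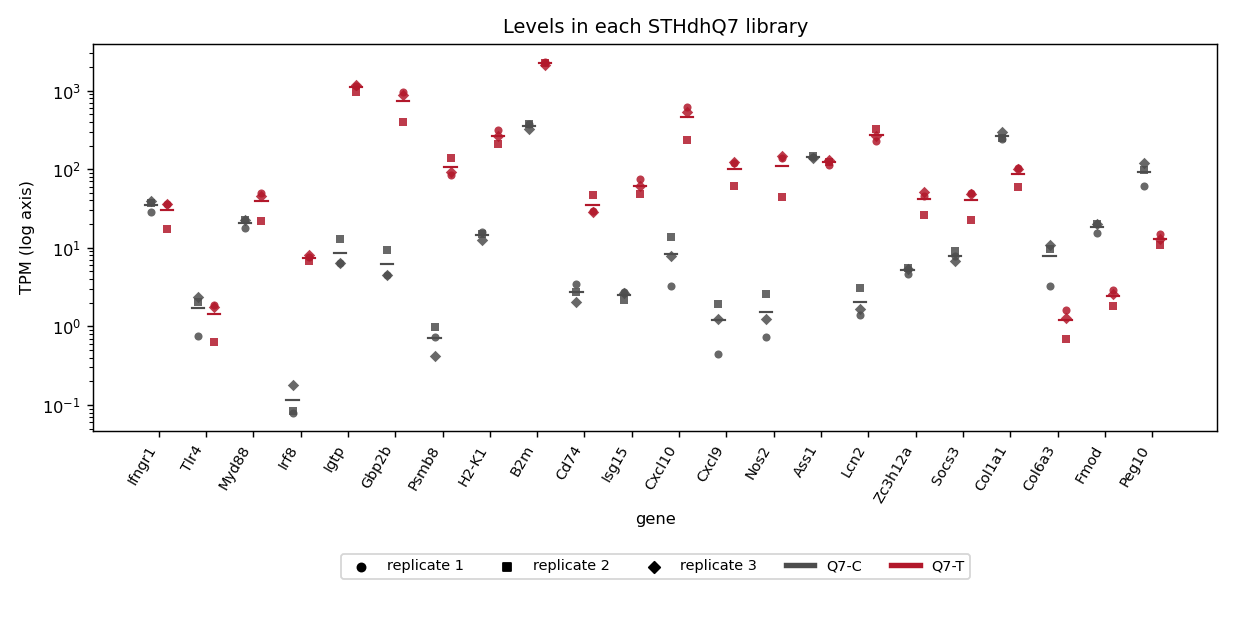
TPM of 22 genes (x axis) in each STHdhQ7 library on a log y axis, with grey symbols for Q7-C, red symbols for Q7-T, a symbol shape per replicate and a bar at the group mean (n = 3). Igtp, Gbp2b, Cxcl10 and Nos2 are far apart between the groups, whereas the groups overlap for Ifngr1 and Tlr4 and Fmod, Peg10 and the collagens are lower in Q7-T.

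Nitric oxide and arginine genes mostly did not pass. Of 18 genes tested, 2 were upregulated and 0 downregulated (median log2 fold change 0.14; 3 upregulated without the pair). Nos2 (chr11:78920787-78960254), the inducible nitric oxide synthase, rose from 0.733, 2.58 and 1.23 TPM to 140.2, 43.9 and 146 TPM (log2 fold change 6.33 ± 0.54, adjusted p = 0.00089), and was called without each library in turn. Azin2, an antizyme inhibitor of polyamine metabolism, rose from 3.38, 3.69 and 3.19 TPM to 8.88, 10.3 and 9.62 TPM (log2 fold change 1.74 ± 0.32, adjusted p = 0.0344), a call that was lost without each library other than Q7-T replicate 2 (log2 fold changes 1.39 to 1.92).

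Ass1, which regenerates arginine from citrulline, was measured at 145, 146 and 139 TPM in Q7-C and 114, 124 and 130.5 TPM in Q7-T (log2 fold change 0.01, adjusted p = 0.992). The polyamine enzymes Odc1 (144 ± 25.2 to 122.5 ± 37.2 TPM) and Srm (152 ± 23.4 to 161 ± 46.5 TPM) had overlapping groups. Slc7a2, the arginine transporter that the series is about, was low in STHdhQ7 cells and was measured at 1.47, 2.04 and 2.73 TPM in Q7-C and 2.88, 0.928 and 2.17 TPM in Q7-T (log2 fold change 0.07, adjusted p = 0.971). Gch1, which starts the synthesis of the Nos2 cofactor tetrahydrobiopterin and was named after its values were seen, was at 5.58 ± 0.478 to 5.22 ± 1.19 TPM (log2 fold change 0.09, adjusted p = 0.955).

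Acute phase and iron genes were upregulated in 7 of 14 cases and downregulated in 0 (median log2 fold change 1.74; 8 upregulated without the pair). Lcn2, which sequesters bacterial iron carriers, rose from 1.41, 3.04 and 1.69 TPM to 231, 328 and 267 TPM (log2 fold change 7.38 ± 0.52, adjusted p = 0.000432). Saa3, a serum amyloid gene, rose from 0.858, 1.16 and 0.365 TPM to 87.1, 149.9 and 86.4 TPM (log2 fold change 7.38 ± 0.74, adjusted p = 0.00193). Both were highest in Q7-T replicate 2. Ceruloplasmin (Cp), which oxidizes iron for export, rose from 12.1, 26.6 and 24.7 TPM to 124, 80.2 and 134 TPM (log2 fold change 2.64, adjusted p = 0.00144). Sod2, the mitochondrial superoxide dismutase, rose from 12, 11.9 and 11.6 TPM to 55.3, 43 and 49.7 TPM (log2 fold change 2.26, adjusted p = 0.0026). The metalloreductase Steap4 was listed at 0 in all Q7-C libraries and at 1.55, 0.834 and 1.31 TPM in Q7-T (at least 13-fold higher, adjusted p = 0.00203), and the phagosomal metal transporter Slc11a1 rose at least 16.8-fold, to 1.09, 1.37 and 1.41 TPM.

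Its relative Slc11a2 rose from 18.8 ± 4.84 to 38.7 ± 13.7 TPM (log2 fold change 1.21, adjusted p = 0.0176), a call that was lost without each library other than Q7-T replicate 2 (log2 fold changes 1.14 to 1.31). The ferritin genes were abundant, and neither passed. Fth1 was measured at 1601, 1420.3 and 1382 TPM in Q7-C and 1976, 3138 and 2021 TPM in Q7-T (adjusted p = 0.528) and Ftl1 at 4934, 3574 and 3182 TPM in Q7-C and 2390.3, 3963 and 2581 TPM in Q7-T (adjusted p = 0.971). Hmox1, the heme oxygenase, was at 248, 220.3 and 192 TPM in Q7-C and 417, 89.6 and 351 TPM in Q7-T and did not pass (adjusted p = 0.913); Q7-T replicate 2 was the lowest of all 6 libraries, and without the pair its log2 fold change was 1.00, adjusted p = 0.000703.

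Of 9 complement genes tested, 5 were upregulated and 0 downregulated, with 5 upregulated whichever library was left out (median log2 fold change 3.18; 6 without the pair). C1s1, a protease of the C1 complex, rose from 1.99, 5.88 and 3.96 TPM to 211, 72.8 and 197 TPM (log2 fold change 5.50, adjusted p = 0.000554). Its partner C1ra rose from 7.22, 11.6 and 10.2 TPM to 111, 49.9 and 117 TPM (log2 fold change 3.41, adjusted p = 0.00037). C3, the central component, rose from 0.282, 0.917 and 1.11 TPM to 25.2, 13.7 and 31.7 TPM (log2 fold change 5.16, adjusted p = 0.000996). In these 3 genes the lowest treated library was Q7-T replicate 2. Serping1, the inhibitor of the C1 proteases, rose with them from 3.69, 6.1 and 4.79 TPM to 57.7, 51.8 and 58.3 TPM (log2 fold change 3.77, adjusted p = 0.000432), and C4b reached 2.53 ± 0.64 TPM (log2 fold change 3.18, adjusted p = 0.00177). Factor B (Cfb) of the alternative pathway was at 2.34 ± 1.0 to 5.13 ± 1.16 TPM and did not pass (adjusted p = 0.115), nor did Cd59a, which protects host membranes, at 5.99 ± 1.67 to 4.91 ± 1.04 TPM.

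Adhesion, checkpoint and tryptophan genes gave 4 upregulated of 8 tested, and 0 downregulated (median log2 fold change 2.04; 6 without the pair). Cd274, the checkpoint ligand PD-L1, rose from 0.512, 0.411 and 0.668 TPM to 20.6, 6.41 and 16.7 TPM (log2 fold change 4.86 ± 0.38, adjusted p = 0.000591). The leukocyte adhesion ligand Icam1 rose from 0.179, 0.281 and 0.179 TPM to 2.98, 1.33 and 2.93 TPM (log2 fold change 3.61, adjusted p = 0.00139). Ido2, an enzyme of tryptophan breakdown, rose from 0.0568, 0.138 and 0.111 TPM to 2.46, 0.872 and 2.31 TPM (log2 fold change 4.32, adjusted p = 0.0017). The co-stimulatory receptor Cd40 rose from 0.0897, 0.22 and 0.214 TPM to 0.855, 0.753 and 1.04 TPM (adjusted p = 0.0167). None of these 4 genes had overlapping groups. The call of Cd40 was lost without any 1 Q7-C library or without Q7-T replicate 3 (log2 fold changes 2.38 to 2.71). Vcam1 was measured at 9.05, 20.3 and 20.2 TPM in Q7-C and 59.8, 15.6 and 51.1 TPM in Q7-T and did not pass (adjusted p = 0.111); without the pair it passed (log2 fold change 1.56, adjusted p = 1.52e-05). Ptgs2, the inducible cyclooxygenase, was at 7.82, 14.1 and 19.8 TPM in Q7-C and 19.7, 3.35 and 13.4 TPM in Q7-T (log2 fold change -0.09, adjusted p = 0.974), with overlapping groups.

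In the cell death list 8 of 19 genes were upregulated and 0 downregulated (median log2 fold change 1.00; 9 without the pair). The inflammatory caspases led the list. Casp1 rose from 0.0329, 0.117 and 0.0426 TPM to 6.19, 5.37 and 6.52 TPM (log2 fold change 6.76 ± 0.50, adjusted p = 0.000518). Casp4, which binds cytosolic LPS, rose from 0.10, 0.146 and 0.149 TPM to 10.1, 12.9 and 11.1 TPM (log2 fold change 6.64 ± 0.42, adjusted p = 0.000329). Casp12 rose from 1.3, 2.43 and 2.33 TPM to 34.5, 13.8 and 30.5 TPM (log2 fold change 3.86 ± 0.27, adjusted p = 0.000416). For all 3 caspases the groups were apart. Gsdmd, the pore-forming substrate of Casp1 and Casp4, rose from 19.4, 18.8 and 20.9 TPM to 66.4, 71.6 and 77.9 TPM (log2 fold change 2.11, adjusted p = 0.00847; call lost without Q7-C replicate 2 or Q7-C replicate 3). The necroptosis executor Mlkl rose from 0.992, 2.33 and 1.77 TPM to 19.4, 13.1 and 18.2 TPM (log2 fold change 3.54, adjusted p = 0.000717). The death receptor Fas rose from 5.95, 9.82 and 7.78 TPM to 88.8, 54.3 and 78.4 TPM (log2 fold change 3.43, adjusted p = 0.000329).

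The receptor Tnfrsf1b (2.84 ± 0.95 to 7.4 ± 2.36 TPM) was also upregulated, and lost its call without Q7-C replicate 2, Q7-T replicate 1 or Q7-T replicate 3 (log2 fold changes 1.46 to 1.73). Between 5 and 8 genes of the list were called with 1 library left out, with 5 without Q7-C replicate 2. Mitochondrial death genes did not pass, with Bak1 at 133 ± 4.21 to 199.5 ± 16.9 TPM (adjusted p = 0.236) and Bax at 145 ± 49 to 171 ± 59.8 TPM (adjusted p = 0.913), nor did Tnfrsf1a at 83.6 ± 1.73 to 147 ± 28.9 TPM (adjusted p = 0.0502).

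Among the lists of other processes, collagens and matrix genes held 7 of the 8 downregulated genes. Of 21 tested, 7 were downregulated and 1 upregulated (median log2 fold change −0.66; 8 downregulated without the pair). Both chains of fibrillar collagen I fell. Col1a1 fell from 245, 249.8 and 300.4 TPM to 104, 59.2 and 99.6 TPM (log2 fold change -1.43 ± 0.19, adjusted p = 0.00868). Col1a2 fell from 10.0, 16.6 and 17.2 TPM to 5.16, 2.44 and 4.9 TPM (log2 fold change -1.63 ± 0.20, adjusted p = 0.00524). Col3a1 fell from 20.4, 31 and 31.5 TPM to 10.6, 4.33 and 8.07 TPM (log2 fold change -1.69 ± 0.21, adjusted p = 0.00524). All 3 genes had their lowest level in Q7-T replicate 2. Of the microfibrillar collagen VI, Col6a1 fell from 117 ± 31 to 42.5 ± 7.28 TPM, Col6a2 from 41.5 ± 8.75 to 13.2 ± 2.61 TPM and Col6a3 from 7.9 ± 4.01 to 1.2 ± 0.465 TPM (log2 fold changes -1.22, -1.44 and -2.50). Col11a1 fell from 1.47, 3.86 and 4.66 TPM to 0.712, 0.212 and 0.449 TPM (log2 fold change -2.67, adjusted p = 0.0156).

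The exception was decorin (Dcn), a small proteoglycan that binds collagen, which rose from 1.27, 2.61 and 2.2 TPM to 16.7, 5.9 and 15.9 TPM (log2 fold change 2.81 ± 0.30, adjusted p = 0.00266). Other abundant matrix genes did not pass. Sparc was at 693 ± 101.3 to 414 ± 41 TPM, with groups that did not overlap (log2 fold change -0.50, adjusted p = 0.546), while the groups overlapped for Fn1 (221 ± 103 to 133 ± 66.6 TPM) and Tnc (85.9 ± 34.4 to 50.9 ± 23.8 TPM). The 7 downregulated calls fell to 4 without Q7-C replicate 2 or Q7-C replicate 3, to 5 without Q7-T replicate 1 and to 3 without Q7-T replicate 3. Col1a2, Col3a1 and Col6a2 kept their calls in each case, while Col1a1 (-1.53 to -1.34), Col6a1 (-1.32 to -1.14), Col6a3 (-2.80 to -2.30) and Col11a1 (-2.98 to -2.44) each lost their call in at least 1 of these fits and kept their direction. With Q7-T replicate 3 alone, 0 of the 7 were called (adjusted p = 0.0627 to 0.262), and limma on log2 TPM called 2 of them, Col1a1 and Col6a2, with each of the pseudocounts. With replicate number added as a block to the edgeR test, 0 of the 7 were called (adjusted p = 0.0706 to 0.144). All 7 kept their direction in these fits, which their separate TPM groups had largely fixed beforehand.

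Of 22 genes of cholesterol synthesis, 1 was upregulated and 0 were downregulated, with a median log2 fold change of −0.51. Q7-T values lay wholly below Q7-C for 8 of them, and for 9.17% of all genes tested. Fdps, a farnesyl diphosphate synthase, was measured at 141, 112 and 97.9 TPM in Q7-C and 66.2, 96.8 and 69.5 TPM in Q7-T (log2 fold change -0.33, adjusted p = 0.92), Sqle at 100.8 ± 34.6 to 70.3 ± 10.4 TPM and the regulator Srebf2 at 100.4 ± 22.6 to 79.2 ± 37 TPM, and 0 genes of the list were downregulated without the pair. The gene that rose, Ch25h, makes 25-hydroxycholesterol, an oxysterol that represses this pathway, and went from 1.47, 1.58 and 1.47 TPM to 44.5, 11.9 and 33.5 TPM (log2 fold change 4.38 ± 0.38, adjusted p = 0.000929).

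Of 29 cell cycle and replication genes, 0 passed (median log2 fold change −0.08), with Pcna at 257 ± 29 to 233 ± 78.9 TPM, Cdc20 at 280.4 ± 16.7 to 228 ± 32.8 TPM and the inhibitor gene Cdkn2a at 344 ± 81 to 356 ± 52.4 TPM. Likewise 0 of 15 Nrf2 targets and antioxidant genes (median 0.19) and 0 of 13 mitochondrially encoded genes (median 0.17) were called, with Gpx1 at 355 ± 55.5 to 345 ± 26.4 TPM, Prdx1 at 269 ± 36 to 327 ± 29.8 TPM and mt-Co1 at 21073 ± 3542 to 18826 ± 4068 TPM. Of 18 heat shock and endoplasmic reticulum stress genes, 1 was upregulated, the stress factor Atf3, from 13.5, 15.8 and 16.2 TPM to 29.4, 26 and 30.1 TPM (log2 fold change 1.14, adjusted p = 0.0467), and that call was lost without any 1 of the 6 libraries (log2 fold changes 0.94 to 1.25). The chaperone Hspa8 was at 1056 ± 93 to 1173 ± 80.2 TPM (adjusted p = 0.836). In the contractile list 1 of 13 genes was downregulated, the matricellular gene Ccn2, from 99.5, 149.8 and 181 TPM to 59.1, 15.8 and 51.9 TPM (log2 fold change -1.65, adjusted p = 0.0462), a call that was lost without each library other than Q7-T replicate 2. Acta2, the smooth muscle actin of this list, was at 1669.6 ± 106 to 1583 ± 85.6 TPM (adjusted p = 0.929).

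Among upregulated genes with groups apart, the largest increases with a mean of at least 5 TPM in Q7-T also included genes outside the lists. Muscle genes with larger fitted changes, such as Pvalb (0.185 ± 0.32 to 95.1 ± 114 TPM, log2 fold change 9.60, adjusted p = 0.216), were not called. Wfdc17, a small secreted inhibitor-like protein, was listed at 0 in Q7-C and at 6.03, 11.2 and 4.3 TPM in Q7-T (at least 13.8-fold higher, adjusted p = 0.0187; call lost without Q7-C replicate 1). The predicted gene Gm20716 was listed at 0 in Q7-C and at 33.8, 13.1 and 17.2 TPM in Q7-T (at least 373-fold higher). Its locus covers parts of Dpm1 and Adnp on one strand. The level of Dpm1 went from 6.12 ± 0.275 to 1.88 ± 0.903 TPM, and the value of Gm20716 is uncertain. Olfr56, named as an odorant receptor, was at 8.14, 2.34 and 7.2 TPM (at least 90.3-fold) and overlaps the GTPase gene Ifi47 on the same strand, so it cannot be told apart from that gene.

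Among the 10 largest decreases of downregulated genes with groups apart, Fmod, a small leucine-rich proteoglycan, fell from 15.2, 20.0 and 20.1 TPM to 2.92, 1.82 and 2.58 TPM (log2 fold change -2.72 ± 0.20, adjusted p = 0.000469). The related gene Ogn fell from 35.3, 62.1 and 58.2 TPM to 15.3, 7.06 and 12 TPM (log2 fold change -2.0, adjusted p = 0.00266). Omd fell from 4.27, 10.4 and 8.21 TPM to 1.36, 0.861 and 1.02 TPM (log2 fold change -2.56, adjusted p = 0.00616). These 3 proteoglycan genes had their lowest level in Q7-T replicate 2. Peg10, a paternally expressed gene of retrotransposon origin, fell from 62, 96.8 and 120.0 TPM to 15.2, 10.9 and 13.1 TPM (log2 fold change -2.59 ± 0.23, adjusted p = 0.00107). The synaptic organizer Cbln1 fell from 7.36, 8.07 and 8.73 TPM to 1.49, 0.831 and 1.41 TPM (log2 fold change -2.53, adjusted p = 0.00112). St8sia2, which adds polysialic acid in the developing brain, fell from 7.67, 14.6 and 15.7 TPM to 2.48, 1.12 and 2.37 TPM (log2 fold change -2.49, adjusted p = 0.00203). All of these calls held without each library in turn. Spon2 (9.4 ± 1.19 to 1.18 ± 0.36 TPM) and the growth factor Ptn (22.3 ± 2.5 to 4.68 ± 3.3 TPM) were also downregulated, with calls lost without Q7-C replicate 1, Q7-C replicate 2 or Q7-T replicate 3 (log2 fold changes -3.13 to -2.41 and -2.68 to -1.86), and for Ptn also without Q7-C replicate 3.

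Promoters of the DEGs were compared with those of all genes tested, as a description. An entry was present for 218 of the 323 upregulated, 57 of the 82 downregulated and 9696 of the 14259 tested genes. A gamma-activated site (TTCNNNGAA, either strand) was found in 17.9% of the upregulated, 1.75% of the downregulated and 8.2% of all promoters. An interferon-stimulated response element (GAAANNGAAA) was found in 25.7%, 7.02% and 3.58% of the same groups. A kappa B site (GGGA, any base, TT, any base, CC, on either strand) was found in 5.96%, 0% and 1.47%. At least 1 of the motifs was present in 40.4%, 8.77% and 12.4%. A promoter without a match lacks only these letters in this window.

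The response was set against that of STHdhQ111 cells in 1 fit of all 12 libraries, with the difference of the responses as the test. A response is a log2 fold change, so it is relative to the nontreated level of each line. Over 16127 genes tested in this way, the response was higher in STHdhQ7 cells for 1.2% and lower for 3.52%. Of 384 list genes, 15 were higher and 41 lower. These counts include Steap4 as higher and Ido2 as lower. Each was listed at 0 in the nontreated cells of 1 line, so its direction cannot be read. Among the STHdhQ111 libraries, Q111-T replicate 2 stood apart. Its longest class of transcripts was shifted by −0.66 relative to its shortest, compared with −0.17 to 0.38 in the other 5. Mitochondrially encoded genes summed to 112437 TPM in it, compared with 68998 and 78762 TPM in Q111-T replicates 1 and 3, and the 10 most abundant genes made up 17.4% of its TPM, compared with 12.2% and 12.7%. In STHdhQ7 libraries these values were 112808 to 133160 TPM and 16.6% to 19.5%. The cause and its part in the differences between the lines were not tested. Without Q111-T replicate 2, 14 list genes were higher and 29 lower. In the 8 libraries low in muscle transcripts, 3 were higher and 9 lower, with Q7-T replicate 3 as the only library of its group. The GTPases showed no called difference (0 of 20, median difference 0.49 on the log2 scale). Tap2 (1.23 ± 0.264 to 53.6 ± 26.3 TPM vs. 6.43 ± 1.24 to 45.7 ± 9.85 TPM, difference 2.61 ± 0.33 (SE), adjusted p = 0.00119) and Mlkl (1.7 ± 0.674 to 16.9 ± 3.34 TPM vs. 69.1 ± 6.8 to 296 ± 47.4 TPM, difference 1.34 ± 0.26 (SE), adjusted p = 0.011) had the larger fold change in STHdhQ7 cells. For Mlkl the nontreated level was far lower in that line, and its rise in TPM was smaller.

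The STHdhQ7 response was lower for several effector genes. Nos2 rose from 1.51 ± 0.956 to 110.0 ± 57.4 TPM in STHdhQ7 and from 1.52 ± 0.728 to 691 ± 170.2 TPM in STHdhQ111 cells (difference -2.59 ± 0.59 (SE), adjusted p = 0.0253; called in 9 of 16 alternatives, adjusted p 0.000328 to 0.305). Slc7a2 was at 2.08 ± 0.629 to 1.99 ± 0.986 TPM in STHdhQ7 and at 5.91 ± 1.21 to 74.7 ± 15.1 TPM in STHdhQ111 cells (difference -3.69 ± 0.33 (SE), adjusted p = 0.000172). Ptgs2 was at 13.9 ± 5.97 to 12.1 ± 8.26 TPM and at 20.7 ± 3.57 to 301 ± 45.2 TPM (difference -4.05 ± 0.53 (SE), adjusted p = 0.00138), and Atf3 at 15.2 ± 1.48 to 28.5 ± 2.2 TPM and 8.65 ± 1.08 to 216 ± 1.15 TPM (difference -3.62 ± 0.25 (SE), adjusted p = 3.71e-05). Cdkn1a, a cell cycle inhibitor, was at 125 ± 17.5 to 134 ± 31.9 TPM in STHdhQ7 and 57.6 ± 2.75 to 672 ± 29.3 TPM in STHdhQ111 cells (difference -3.38 ± 0.18 (SE), adjusted p = 1.00e-05). Mlkl in the paragraph above, and the genes of this one, were singled out after their values were seen. The lower group held 25 genes without Q7-C replicate 2, 26 without Q111-T replicate 1, 23 without Q111-C replicate 1 or Q111-C replicate 2, and 62 without the pair, where the higher group held 24.

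**Figure D5:**
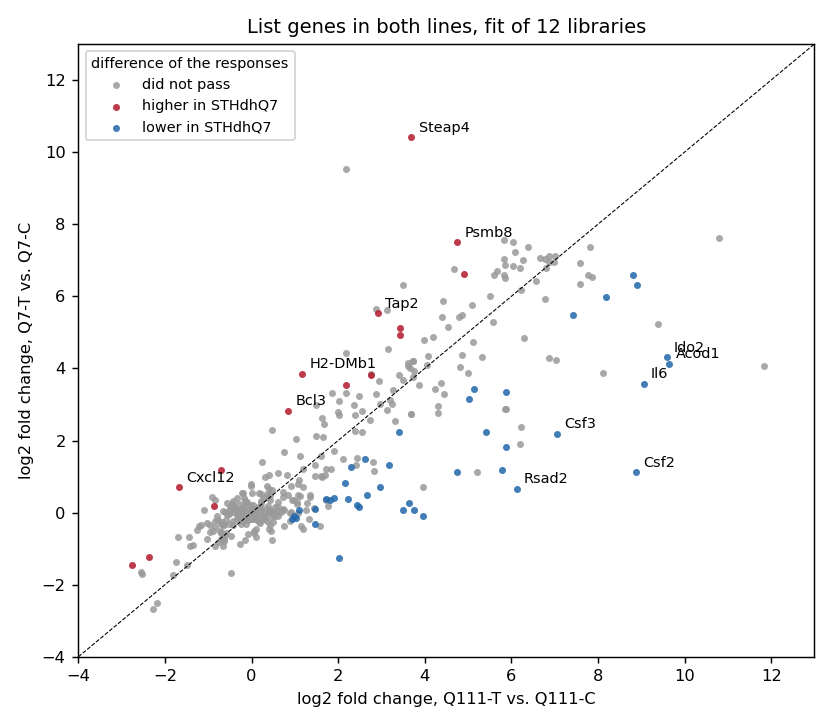
Log2 fold change of the 384 list genes in STHdhQ7 cells (y axis) against that in STHdhQ111 cells (x axis), both from the fit of 12 libraries; the dashed line marks equal responses. Red points (15) passed the test as higher and blue points (41) as lower in STHdhQ7 cells, and fold changes of genes not detected without treatment, such as Steap4 in STHdhQ7 and Ido2 in STHdhQ111 cells, depend on the prior count.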

How the data were processed

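Total RNA of 12 libraries was sequenced by the authors from stranded poly(A) libraries with paired reads. Per the study's methods, reads were trimmed with Cutadapt, aligned to GRCm38 with HISAT2 and assembled and quantified with StringTie. The deposited table holds estimated counts and TPM per gene, and both units were used as the authors deposited them. Whether counting used strand is not given in the sources used here. Low counts favour multiples of 4, and a gene with no more than 12 counts in every library of a group is called not detected.

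Genes that reached 0.5 TPM in 3 or more of the 6 STHdhQ7 libraries were tested with edgeR 4.0.16 (R 4.3.3, TMM scaling, quasi-likelihood test, Benjamini-Hochberg adjustment over 14259 genes), on estimated counts rounded to whole numbers. Differences between lines were tested as an interaction in all 12 libraries. Tested on simulated data of the same 14259 genes, the Q7-T vs. Q7-C fit called 73 of 100 genes changed by 2 on the log2 scale, 98 of 100 changed by 3, and 4 of 14059 unchanged genes. These counts were drawn independently for each gene, without the length trend, the muscle transcripts of single libraries or other shared deviations. The numbers are therefore no error rates for the real libraries. Alternatives used DESeq2 1.42.0, limma 3.58.1, other filters and scaling, a replicate block and the omission of libraries. Fits without the pair of libraries, with the length trend removed, with Q7-T replicate 3 alone and with the 8 libraries low in muscle transcripts were chosen after seeing the data. The members and lists were chosen with earlier results of these data known. Named genes were all receptor genes, up to 6 called genes per list with the largest changes and groups apart, up to 3 abundant uncalled genes per list, the 10 largest increases and decreases at 5 TPM or more, called list genes whose call 1 library decided, and up to 6 list genes in each direction that differed between lines. An exact permutation test of 3 libraries against 3 cannot go below p = 0.1. Promoters (250 bases before to 50 after the start) came from RefSeq, GRCm38.p6.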

Additional observations from a re-analysis of the deposited data

Results flagged for a closer look

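In the 12-library fit, 12 list genes were picked because the test of the difference between the lines called them, and each difference is the log2 fold change of STHdhQ7 minus that of STHdhQ111 cells with its edgeR adjusted p. Psmb8, an immunoproteasome subunit, went from 0.71 ± 0.278 to 105 ± 29.7 TPM in STHdhQ7 and from 2.41 ± 0.317 to 60.8 ± 0.706 TPM in STHdhQ111 cells, a difference of 2.74 ± 0.56 (SE), adjusted p = 0.0145 (range over the alternatives 5.99e-05 to 0.128). H2-DMb1, a class II loading factor, went from 0.487 ± 0.209 to 6.35 ± 0.654 TPM in STHdhQ7 and from 9.81 ± 1.28 to 20.3 ± 2.37 TPM in STHdhQ111 cells, a difference of 2.68 ± 0.55 (SE), adjusted p = 0.0147 (range over the alternatives 3.13e-05 to 0.199). Tap2, a peptide transporter subunit, went from 1.23 ± 0.264 to 53.6 ± 26.3 TPM in STHdhQ7 and from 6.43 ± 1.24 to 45.7 ± 9.85 TPM in STHdhQ111 cells, a difference of 2.61 ± 0.33 (SE), adjusted p = 0.00119 (range over the alternatives 2.10e-11 to 0.0172). Cxcl12, a stromal chemokine, went from 15.7 ± 4.06 to 23.7 ± 12.4 TPM in STHdhQ7 and from 4.65 ± 0.309 to 1.36 ± 0.249 TPM in STHdhQ111 cells, a difference of 2.37 ± 0.34 (SE), adjusted p = 0.00218 (range over the alternatives 3.17e-09 to 0.0352). Bcl3, an NF-kB co-factor, went from 2.17 ± 0.20 to 13.8 ± 1.85 TPM in STHdhQ7 and from 12.1 ± 1.56 to 20.1 ± 3.46 TPM in STHdhQ111 cells, a difference of 1.98 ± 0.36 (SE), adjusted p = 0.00898 (range over the alternatives 1.02e-05 to 0.0878). Steap4, a metalloreductase, went from 0 ± 0 to 1.23 ± 0.363 TPM in STHdhQ7 and from 0.0972 ± 0.0813 to 1.2 ± 0.20 TPM in STHdhQ111 cells, a difference of 6.72 ± 1.2 (SE), adjusted p = 0.0116 (range over the alternatives 0.000212 to 0.124). Steap4 was listed at 0 in all Q7-C libraries, so its fitted difference depends on the prior count, and neither its size nor its direction can be read from it.

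For 5 genes the response was lower in STHdhQ7 cells. Csf2, a granulocyte-macrophage growth factor, went from 0.252 ± 0.271 to 0.506 ± 0.442 TPM in STHdhQ7 and from 0.0671 ± 0.116 to 32.9 ± 7.76 TPM in STHdhQ111 cells, a difference of -7.75 ± 1.51 (SE), adjusted p = 0.0118 (range over the alternatives 1.11e-06 to 0.114). Acod1, which makes itaconate, went from 0.0375 ± 0.041 to 0.59 ± 0.20 TPM in STHdhQ7 and from 0.0426 ± 0.0441 to 34.8 ± 7.21 TPM in STHdhQ111 cells, a difference of -5.52 ± 1.15 (SE), adjusted p = 0.0155 (range over the alternatives 7.98e-10 to 0.166). Csf2 and Acod1 were not detected in Q111-C (at most 12 estimated counts per library), so the size of both differences depends on the prior count and is no bound. Il6 went from 1.17 ± 0.977 to 12.7 ± 8.96 TPM in STHdhQ7 and from 1.24 ± 1.51 to 618 ± 109 TPM in STHdhQ111 cells, a difference of -5.48 ± 1.30 (SE), adjusted p = 0.031 (range over the alternatives 0.000667 to 0.23). Rsad2, the viperin gene, went from 0.181 ± 0.207 to 0.239 ± 0.163 TPM in STHdhQ7 and from 2.11 ± 0.759 to 139.6 ± 34.7 TPM in STHdhQ111 cells, a difference of -5.46 ± 1.12 (SE), adjusted p = 0.0146 (range over the alternatives 0.00104 to 0.102). Csf3 went from 0.244 ± 0.102 to 0.948 ± 0.398 TPM in STHdhQ7 and from 0.262 ± 0.0634 to 34 ± 2.58 TPM in STHdhQ111 cells, a difference of -4.85 ± 0.74 (SE), adjusted p = 0.00338 (range over the alternatives 6.96e-09 to 0.0433). Ido2, an enzyme of tryptophan breakdown, was called lower by the fit. It went from 0.102 ± 0.0414 to 1.88 ± 0.879 TPM in STHdhQ7 and from 0 ± 0 to 0.767 ± 0.0244 TPM in STHdhQ111 cells, a difference of -5.28 ± 0.84 (SE), adjusted p = 0.00713 (range over the alternatives 0.00284 to 0.13). It was listed at 0 in all Q111-C libraries, so the same limit holds as for Steap4.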

How the results depend on the processing

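The 323 upregulated and 82 downregulated genes kept their direction in every alternative that tested them. This was largely fixed beforehand, as the TPM groups did not overlap for nearly all of these genes. Their number depended on the processing. The downregulated genes numbered 181 with DESeq2, 179 with all 12 libraries in 1 fit, 43, 40 and 32 with limma on log2(TPM + 0.5), log2(TPM + 0.1) and log2(TPM + 1), 272 without Q7-C replicate 1 and Q7-T replicate 2 (480 upregulated), 126 with the transcript length trend removed, and 11 with Q7-T replicate 3 alone against Q7-C (171 upregulated). With 1 library left out the counts were 200 to 371 upregulated and 18 to 117 downregulated. A replicate block gave 187 upregulated and 13 downregulated genes. Deviations of same-numbered libraries from their group means correlated at −0.607, −0.404 and 0.513. Such deviations sum to 0 within a group, and those of Q7-C replicate 1 and Q7-T replicate 2 correlated most (0.678). These values therefore cannot show whether the numbers pair the libraries. The 117 upregulated list genes numbered 91 to 123 with 1 library left out and 87 with the replicate block. The 8 downregulated list genes numbered 9 without the pair, 2 in each of the limma fits, 0 with the replicate block or with Q7-T replicate 3 alone, and 3 to 8 with 1 library left out. List genes with a higher response in STHdhQ7 cells (15) numbered 27 with DESeq2, 7 with a replicate block within line, 24 without the pair, 3 in the 8 libraries low in muscle transcripts and 13 to 21 with 1 library left out. Those with a lower response (41) numbered 13 with the block, 62 without the pair, 9 in those 8 libraries and 23 to 47 with 1 library left out. Among single named genes, 3240 values kept their direction and side of the threshold, 313 no longer passed, 50 newly passed and 110 moved, and 0 reversed. The cause of these differences was not tested. The median log2 fold change of all genes was 0.01 in the edgeR fit and −0.18 on the log2(TPM + 0.5) scale. Depth limits genes with at most 12 estimated counts per library.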

Other observations

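Further gene families, chosen after their values were seen, are described by their counts. Of 13 poly(ADP-ribose) polymerase genes, 5 were upregulated (Parp3, Parp9, Parp10, Parp12 and Parp14) and 0 downregulated, with a median log2 fold change of 1.08. Of 6 alpha-1-antichymotrypsin-like serpin genes 5 were upregulated (median 6.0), and of 6 apolipoprotein L genes 4 (median 5.05). The Ifi200 family of DNA sensors gave 5 of 7 (median 3.00), and class I genes of the Q and T regions 9 of 10 (median 4.25, or 3.73 with undetected genes at their bounds). These families hold similar sequences, so the split of reads between members is uncertain. Of 8 bacterial sensor and adaptor genes, 4 were upregulated (Tlr2, Nod1, Nod2 and Ripk2), with a median of 2.15.

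Other families held downregulated genes. Of 10 small leucine-rich proteoglycan genes, 4 were downregulated (Fmod, Omd, Ogn and Prelp) and 1 upregulated (Dcn), with a median of −0.31. Of 22 genes of Wnt signalling, 5 were downregulated (Wnt4, Lgr4, Lgr6, Sfrp4 and Apcdd1) and 1 upregulated (Sfrp1), with a median of −0.62, and 0 to 4 genes of the list were downregulated with 1 library left out. Of 9 Hedgehog pathway genes, 1 was downregulated, the transcription factor Gli1, and 0 to 1 with 1 library left out.

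Tubb3, a neuronal tubulin gene, rose from 17.8, 16.2 and 16.8 TPM to 82.3, 57.9 and 83.6 TPM (log2 fold change 2.31, adjusted p = 0.00196), while Stmn2, another neuronal marker, was at 72.1, 79.0 and 69.6 TPM and at 80.4, 72.9 and 82.0 TPM. Map2 was at 4.41, 8.74 and 10.6 TPM and at 3.11, 0.604 and 2.67 TPM and was not called, and Snap25, Syt1 and Dcx were listed at 0 in all 6 libraries. Tmem119, known as a microglial marker, fell from 13.1, 12 and 11.9 TPM to 3.13, 2.96 and 3.34 TPM (log2 fold change -1.76, adjusted p = 0.0223).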
